A study of Caenorhabditis elegans with 4 samples.

Results

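The 503 regions described here are narrow JUN-1 binding peaks that lie close to another peak. They were chosen from the combined peak list as peaks under 800 bp wide with an edge-to-edge gap of at most 1000 bp to at least 1 neighbouring peak of any width on the same chromosome. They made up 14.5% of the 3467 peaks and 17.3% of the 2904 peaks under 800 bp. The other 2401 narrow peaks had no neighbour within that distance and are called isolated here, and the remaining 563 peaks were 800 bp or wider and are called broad. Width and gap chose the members, so they are given below as a description, and so is peak strength, which came from the same peak calls.

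In the nematode Caenorhabditis elegans, JUN-1 represents the Jun family of transcription factors, which bind DNA through a basic leucine zipper, often as dimers with a Fos protein, as the AP-1 complex. AP-1 factors are known as immediate responders to growth and stress signals, downstream of kinases of the JNK and other MAP kinase families. In ChIP-seq, protein is crosslinked to chromatin, which is sheared, collected with an antibody and sequenced, and a peak is a stretch with more reads than the caller's background. A factor bound at sites a short distance apart can give separate peaks or 1 merged peak, depending on fragment length and on how the caller joins neighbouring stretches.

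The series held 2 ChIP samples, replicates 1 and 2, and 2 input samples of total chromatin, which had no values of their own here. All came from L3 larvae, hermaphrodites raised at 20 °C, of strain OP234, which carries unc119(ed3) and the transgene wgIs234. That transgene, brought in by bombardment, holds the jun-1 gene T24H10.7 with a TY1, EGFP and FLAG tag together with unc119, so the mapped protein is the tagged one, from whole animals with every tissue mixed. An antibody raised in goat against GFP collected the ChIP chromatin. The deposited values were the position and q-value (a p-value that the authors' caller adjusted for many tests) of each peak in 3 lists, namely replicate 1 with 918 peaks, replicate 2 with 3472 and combined. No read depth came with them, so peak strength, written as −log10 q, orders peaks within a list and does not measure occupancy. Of the combined peaks, 89.1% had the start, end and q-value of a replicate 2 peak, and among the clustered narrow peaks 452 of 503 (89.9%) did. Replicate 2 is therefore no separate evidence for them, and the list that adds information is replicate 1. Positions are in WormBase WS180. Genes and sequences at the peaks were not analysed here, for want of a genome of that build.

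Most clustered narrow peaks stood in pairs. Runs of peaks in which every gap was at most 1000 bp numbered 281 with at least 1 narrow peak, and 217 of them (77.2%) held 2 peaks, 56 held 3, 7 held 4 and 1 held 5. Narrow peaks alone made up 162 runs with 341 members, of which 146 were pairs, 15 were triplets and 1 held 4 peaks. In the other 119 runs the remaining 162 members lay with 132 broad peaks, and 71 of these runs were a single narrow peak beside a single broad one. Only 50 members had a close neighbour on both sides, against 453 with a neighbour on 1 side. The narrow-only runs had a median length of 1502 bp from the first start to the last end (range 438 to 3758 bp), and the mixed runs 2645 bp (range 1261 to 10301 bp).

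Gaps below about 200 bp were missing. The smallest gap in the combined list was 204 bp, and the smallest was 205 bp in replicate 1 and 205 bp in replicate 2. Any stretches that lay closer together than this are not present as separate peaks in the lists. Just above that floor short gaps were the most frequent, with 127 gaps of 201 to 400 bp, 94 of 401 to 600 bp, 101 of 601 to 800 bp and 78 of 801 to 1000 bp. The 2 next bins of 200 bp, beyond the limit of the rule, held 66 and 68 gaps, so the limit of 1000 bp cut through a gradual decline. In all, 400 of the 3461 gaps between next neighbours (11.6%) were at most 1000 bp. Between 2 narrow peaks the median gap was 609 bp (quartiles 391 and 808 bp, n = 207), between a narrow and a broad peak 530 bp (334 and 715 bp, n = 139), and between 2 broad peaks 430 bp (258 and 627 bp, n = 54). The midpoints of 2 linked narrow peaks lay a median of 1044 bp apart (quartiles 838 and 1261 bp).

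**Figure D1:**
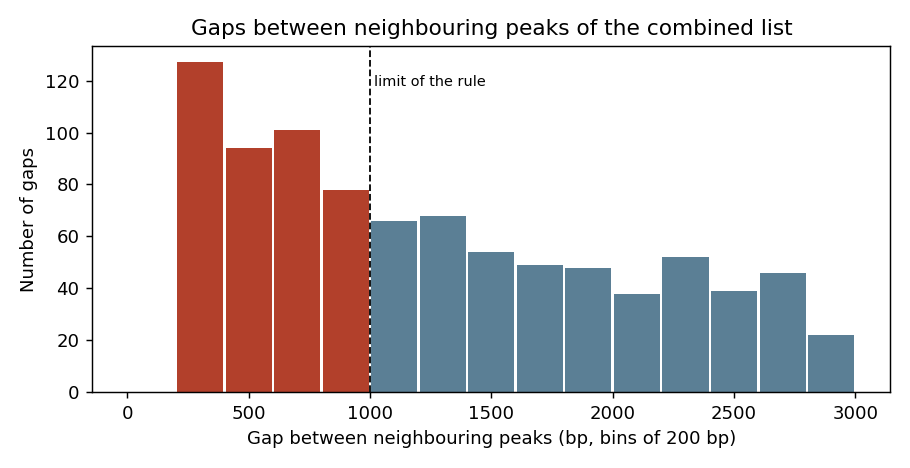
Number of gaps between neighbouring peaks of the combined list (y axis) by gap length in bp (x axis, bins of 200 bp, shown up to 3000 bp), with gaps up to 1000 bp in red and longer gaps in blue. No gap was under 204 bp, the first filled bin was the highest with 127 gaps, and the counts declined without a break at the 1000 bp limit.

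At the edges of the rule, the widest member was 798 bp, at V:14354044-14354841, with a −log10 q of 11.3, and the narrowest close-set peak outside was 800 bp, at III:6149153-6149952, with a −log10 q of 10.9. The largest gap inside was 997 bp, beside the 452 bp peak at I:9788468-9788919 (−log10 q 26.8). The nearest narrow peak outside, at X:14505763-14506228, had a gap of 1002 bp and a −log10 q of 9.19. The peak next outside, at III:12612226-12612872 with a gap of 1013 bp, had a −log10 q of 59.4, above that of every member. The narrowest members were 26 bp at II:9274905-9274930, 31 bp at IV:11247597-11247627 and 49 bp at I:3296072-3296120. Their −log10 q values were 4.46, 4.61 and 4.36, and none was overlapped by replicate 1.

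The strongest clusters were picked by their strongest narrow peak, a choice that itself favours weaker narrow neighbours. The pairs in this paragraph joined 1 strong peak to a much weaker one. Some clusters picked in the same way had closer values and are given below. The strongest member of all, 463 bp wide at IV:4749848-4750310, reached a −log10 q of 46.5, rank 70 of the combined list, and stood at rank 45 of replicate 1 with 21.9. Its neighbour, 819 bp away at IV:4748250-4749028, had 8.50 in the combined list and 4.41 in replicate 1. Both peaks of this pair were therefore called in both lists, far apart in strength. A second pair, at III:4649022-4649815 and III:4650080-4650448, had −log10 q values of 34.9 and 5.16 across a gap of 264 bp. Replicate 1 held the stronger (15.4) and not the weaker. The same held for II:2973819-2974544 and II:2975539-2975960, with 31.2 and 8.68 across 994 bp, and a replicate 1 value of 16.1 for the stronger alone. On X, the pair at X:12872044-12872720 and X:12873584-12874207 was more unequal still. Its −log10 q values were 29.0 and 3.55, ranks 154 and 3454 of 3467, and replicate 1 held the stronger with 15.5.

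Some runs held several peaks that replicate 1 also resolved. On chromosome V, a broad peak of 4750 bp at V:723687-728436 (−log10 q 113, rank 13) was followed by 3 narrow ones at V:728930-729689, V:730237-730890 and V:731140-731793. Their −log10 q values were 7.39, 12.1 and 29.1, and the gaps along the run were 493, 547 and 249 bp. Replicate 1 held the broad peak (49.5), the nearest narrow peak (4.32) and the farthest one (15.2), but not the middle one. On chromosome III, 3 narrow peaks at III:8794546-8795219, III:8795440-8796174 and III:8797078-8797741 had −log10 q values of 12.1, 15.6 and 27.4. Replicate 1 held the second (8.35) and the third (9.54). On X, the narrow peak at X:13528408-13528995 (29.2) was stronger than the 1711 bp peak beside it (12.4), and replicate 1 had 10.5 and 4.12 for them. The replicate 1 peak at the 1711 bp one covered only 657 bp of it. Chromosome I gave 3 of the 10 strongest clusters. They included the pair at I:6963180-6963631 and I:6964285-6964815, with 31.0 and 17.7 in the combined list and 7.33 and 5.44 in replicate 1. Another was the pair at I:315014-315689 and I:316033-316414 (28.5 and 9.12), of which replicate 1 held the stronger (7.50). In the third, the narrow peak at I:10777256-10777790 (28.4) was in replicate 1 (7.67), and the stretch of 1045 bp beside it (23.3) was not.

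**Figure D2:**
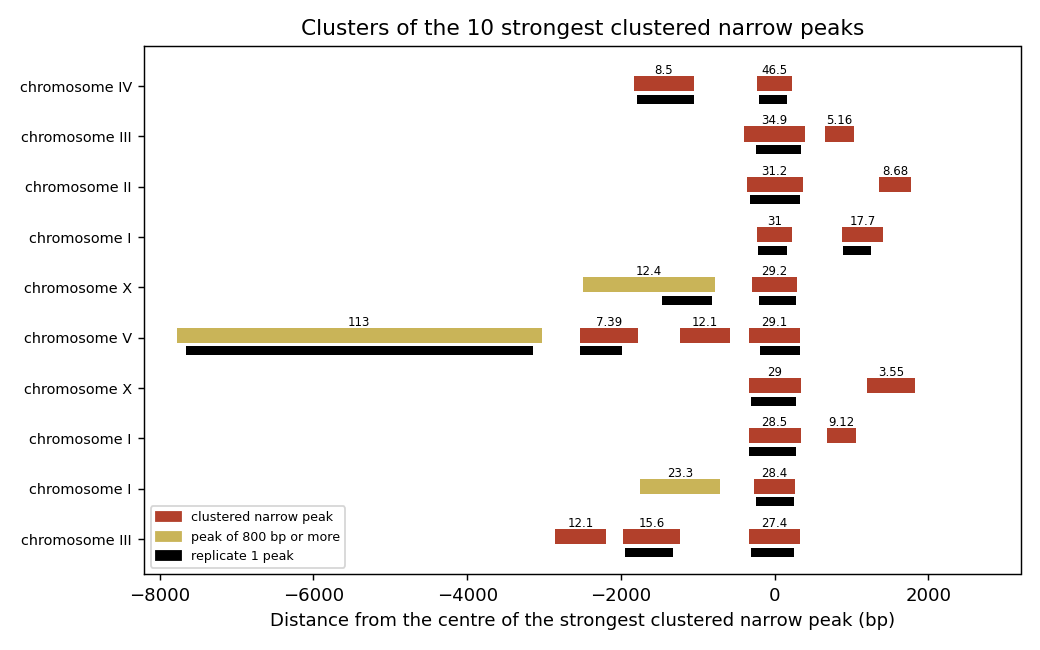
Clusters that hold the 10 strongest clustered narrow peaks, 1 per row in order of strength, by distance in bp from the centre of the strongest narrow member (x axis). Red bars are clustered narrow peaks and yellow bars broad peaks of the combined list, numbers above them are −log10 q, and black bars below are the strongest overlapping replicate 1 peaks. Replicate 1 held the strongest narrow peak in each row, while for 7 of the 13 other peaks no black bar is drawn. Rows were chosen by the strength of that peak, and replicate 1 overlapped most of the strongest narrow peaks. The choice of rows therefore favours this contrast.

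The largest run held 5 peaks, at V:18572680-18578721, with 2 broad peaks (−log10 q 13.4 and 7.34) followed by 3 narrow ones (6.08, 9.99 and 4.52) across gaps of 246, 648, 664 and 503 bp. Replicate 1 held the broad peaks alone, as peaks of 1011 and 568 bp. In a run of 4 at I:7489779-7494871, a broad peak (62.1) stood among narrow ones with 17.1, 4.06 and 7.67, and replicate 1 held the broad one (14.2) and the first narrow one (6.44). Another run of 4, at V:20410654-20414635, had values of 4.07, 5.44, 4.47 and 9.93, and replicate 1 held the last (6.00). A run on X of 4 peaks, X:9548823-9552697, had −log10 q values of 8.66, 5.21, 7.19 and 5.09, none with a replicate 1 peak, and included the shortest gap of the list, 204 bp. The next shortest gaps, 205 bp each, lay between the narrow peaks III:11251698-11252066 and III:11252272-11252465 (7.52 and 5.35, neither in replicate 1) and between IV:4405253-4406684, a broad peak, and IV:4406890-4407479 (14.4 and 8.81, both in replicate 1). At that broad peak the replicate 1 peak was 700 bp wide. The single run of 4 narrow peaks, IV:9525005-9528762, is named because it is the only one. Its strongest peak had a −log10 q of 7.32, and none of the 4 was in replicate 1.

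Narrow neighbours within a run were about as unequal in strength as narrow neighbours farther apart. Among the 207 linked pairs of narrow peaks the stronger peak had a median −log10 q of 9.06 and the weaker one 4.80. The ratio of the 2 values had a median of 1.57 (quartiles 1.25 and 2.22). Among 798 next-neighbour pairs of narrow peaks with gaps of 1001 to 10000 bp it was 1.54 (1.21 and 2.12). Where a narrow peak was linked to a broad one, the ratio was larger, with a median of 2.01 (quartiles 1.35 and 3.55, n = 139). The broad peak was the stronger in 108 of these 139 pairs and the narrow one in 31. Broad peaks as a class had a median −log10 q of 13.6, against 5.81 for isolated narrow peaks. Narrow and broad neighbours farther apart were not compared, so whether the larger ratio is particular to close pairs was not tested.

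As a class, clustered narrow peaks were slightly stronger and wider than isolated ones. Their median −log10 q was 6.73 (quartiles 4.56 and 10.1, n = 503), against 5.81 for isolated narrow peaks (4.36 and 8.68, n = 2401) and 6.53 over all peaks. The ranges overlapped almost fully, from 3.53 to 46.5 for clustered narrow peaks and from 3.52 to 78.7 for isolated ones. Just 1 clustered narrow peak was among the 100 strongest of the combined list, against 17 isolated and 82 broad ones. The median width was 443 bp (quartiles 351 and 563 bp) for clustered narrow peaks and 375 bp (304 and 481 bp) for isolated ones. Peaks under 200 bp made up 3.18% of the clustered class (16 peaks) and 5.87% of the isolated class (141 peaks).

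At equal width the classes did not differ in 1 direction. At 1 to 199 bp the median −log10 q was 4.15 for clustered and 4.02 for isolated narrow peaks, and at 200 to 299 bp it was 4.33 and 4.72. Among peaks of 300 to 399 bp the median −log10 q was 5.63 for clustered and 5.79 for isolated narrow peaks, at 400 to 499 bp it was 7.45 and 7.46, and at 500 to 599 bp it was 7.73 and 7.69. At 600 to 699 bp the clustered peaks were higher (10.1 in 54 clustered peaks, 7.96 in 172 isolated ones), and at 700 to 799 bp lower (8.18 in 31 clustered peaks, 9.48 in 99 isolated ones). Averaged over the width classes, weighted by the clustered peaks, the difference in median −log10 q was 0.076, a mean over classes that went both ways, against 0.921 (interval 0.447 to 1.44) without regard to width. That interval was built from the ranked −log10 q values of single peaks in each class. It treats peaks as independent, which members of a run are not, so it is a description and no test. With gaps of up to 500 bp the interval included 0 (-0.038 to 1.64), as it did among replicate 1's own peaks (-0.446 to 1.41). By distance, the median was 6.86 for narrow peaks with a nearest gap of up to 500 bp, 6.61 at 501 to 1000 bp, 5.70 at 1001 to 2000 bp, 5.93 at 2001 to 10000 bp and 5.76 beyond.

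**Figure D3:**
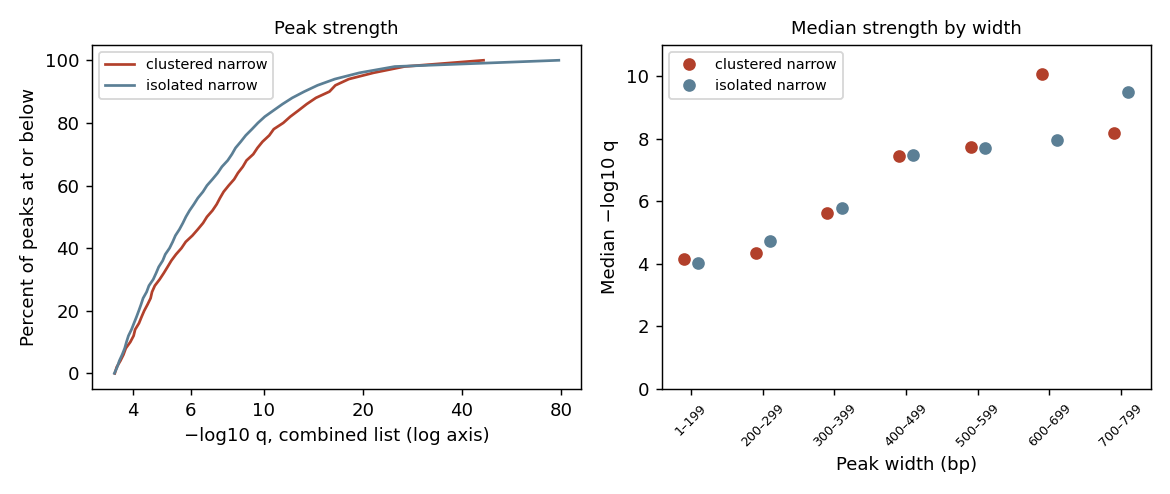
Left, the percent of peaks (y axis) at or below a given −log10 q (x axis, log scale) for clustered narrow peaks (red) and isolated narrow peaks (blue). Right, median −log10 q (y axis) by peak width in bp (x axis). The clustered curve lies to the right over most of its course, with medians of 6.73 and 5.81, while from 300 to 599 bp the medians at equal width differ by less than 0.2.

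Replicate 1, the list that the rule did not use, overlapped 115 of the 503 clustered narrow peaks by at least 1 bp (22.9%, 95% Wilson interval 19.4 to 26.7%). It overlapped 449 of the 2401 isolated narrow peaks (18.7%, 17.2 to 20.3%). Over all combined peaks the share was 25.7%, over all narrow ones 19.4% and over broad ones 58.1%. The difference between clustered and isolated narrow peaks was 4.16 percentage points (95% Newcombe interval 0.35 to 8.31). These intervals cover counting error only and treat peaks as independent, which members of a run are not. No p-value is given for the same reason. The sources used here do not say whether the combined list holds reads of replicate 1.

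At matched strength the difference was not seen. All narrow peaks were cut by q-value into 10 equal groups. In the strongest, replicate 1 overlapped 59 of 67 clustered peaks (88.1%) and 212 of 224 isolated ones (94.6%). In group 2 the shares were 55.6% for clustered and 55.5% for isolated peaks, in group 3 they were 27.1% and 28.1%, and in group 4 they were 8.93% and 12.3%. In groups 5 to 10 none of 258 clustered peaks was overlapped, which allows a share of up to 1.16% when 3 counts are taken as the limit. In the same groups 17 of 1484 isolated ones were overlapped (1.15%, Wilson interval 0.716 to 1.83%). The limits of the 2 classes were computed in different ways and cannot be set against each other. At the isolated peaks' rates in each group, 24.8% of the clustered peaks would have been overlapped, against the 22.9% found, a difference of -1.91 points (interval -5.37 to 1.95, from the Wilson interval of the clustered share alone). The strongest group held 67 clustered peaks, 23.0% of its peaks, against 17.3% of all narrow peaks. Where a replicate 1 peak existed, its −log10 q had a median of 5.61 at clustered peaks (n = 115) and 5.49 at isolated ones (n = 449).

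**Figure D4:**
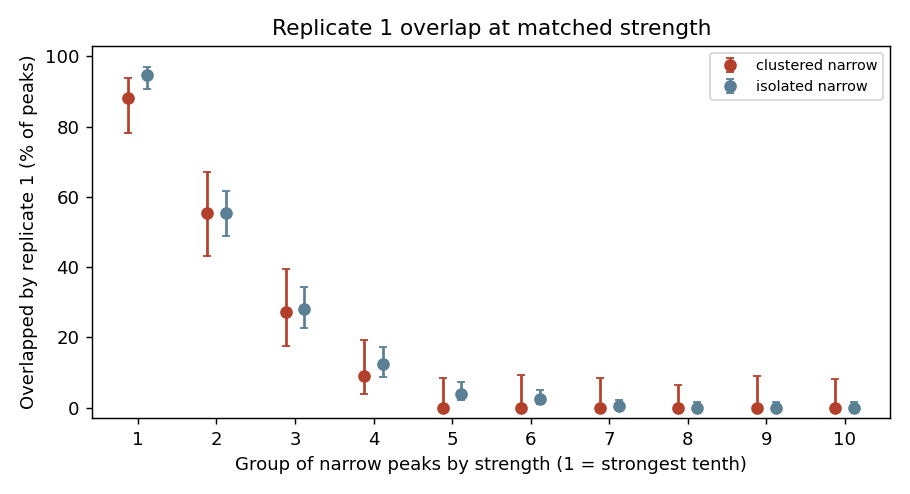
Share of clustered narrow peaks (red) and isolated narrow peaks (blue) overlapped by a replicate 1 peak (y axis, percent, bars are 95% Wilson intervals) in 10 equal groups of narrow peaks by q-value (x axis, 1 is the strongest). Both shares drop steeply from group 1 to group 5, and the intervals of the 2 classes overlap in every group.

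Where replicate 1 held any peak of a close narrow pair, it mostly held the stronger one alone. Of the 207 linked pairs of narrow peaks, 130 (62.8%) had neither peak in replicate 1, 64 had the stronger only, 2 the weaker only and 11 both. Among the 798 narrow neighbours 1001 to 10000 bp apart, 514 (64.4%) had neither, 239 the stronger only, 9 the weaker only and 36 both. No replicate 1 peak spanned both peaks of any pair. In the 11 pairs found whole, the gap was wider in replicate 1 in every one, with a median of 770 bp there and 747 bp in the combined list, and the same peak was the stronger in 9 of the 11. Seen by run, 33 of the 281 had all their narrow peaks in replicate 1, 68 had some and 180 had none, and in 41 of those 180 replicate 1 held the broad peak alone. Of the 33, however, 23 were mixed runs, and 20 of these were pairs with a single narrow peak. Of the 162 narrow-only runs, 10 had all their peaks in replicate 1, 52 had some and 100 had none. Of the 115 overlapped members, 40 (34.8%) had a replicate 1 peak that itself had a neighbour within 1000 bp in its own list. Of the 449 overlapped isolated narrow peaks 0 did, a class chosen for having no close neighbour in the combined list. Under the same rule replicate 1 gave 68 clustered narrow peaks among its 723 narrow ones (9.41%). Replicate 2, whose list nearly equals the combined one, gave 505, and 499 of the 503 members overlapped a clustered narrow peak there.

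Clustered narrow peaks were concentrated in the middle of the autosomes more than isolated ones. Each chromosome was cut into 3 equal parts of its span. On the 5 autosomes, 234 of 443 clustered narrow peaks lay in the middle part (52.8%, Wilson interval 48.2 to 57.4%), and so did 822 of 2011 isolated ones (40.9%, 38.7 to 43.0%), against 43.5% of all autosomal peaks. The difference was 11.9 points (Newcombe interval 6.81 to 17.0). The intervals in this paragraph count each peak as independent. However, the 443 clustered peaks lay in 246 runs, whose members lie close together, so the intervals are likely too narrow. The Wilson intervals of the 2 classes lay apart on I (58.5% of clustered and 40.2% of isolated peaks) and II (66.7% and 41.7%). They overlapped on III (44.4% and 32.8%), V (56.4% and 44.9%) and X (41.7% and 35.9%), and on IV, where the clustered share was the lower (38.3% and 44.1%). The difference was 4.77 points when gaps were limited to 500 bp (interval -2.74 to 12.4) and 1.86 points among replicate 1's own clustered and isolated peaks (-10.9 to 15.1), and both intervals include 0. Dense stretches have short gaps for any placement of peaks, so position is not independent of the rule. Between 5 and 50 kb away, clustered narrow peaks had a median of 4 other peaks and isolated ones 3, with quartiles of 2 and 5 in both classes. Broad peaks also had a median of 4.

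By chromosome, the clustered share of narrow peaks was highest on I and lowest on X. It was 20.2% on I (123 clustered peaks, Wilson interval 17.2 to 23.6%), 19.8% on V (101), 17.9% on III (81), 16.8% on II (57), 14.9% on IV (81) and 13.3% on X (60, 10.5 to 16.8%), and 18.1% over the autosomes. The intervals of I and X lay apart, and those of every other pair of chromosomes overlapped. X held 11.9% of the clustered and 16.2% of the isolated narrow peaks, a difference of -4.31 points (Newcombe interval -7.29 to -0.882). These intervals also treat members of a run as independent. The mean density of all peaks was 46.2 per Mb on I, 39.9 on III, 36.3 on IV, 32.7 on X, 29.1 on V and 27 on II. That order differed from the order of the clustered shares, as V had a high share at low mean density. Gaps depend on local density, and its part in the shares was not tested. The fullest 1 Mb stretch, between 7 and 8 Mb of I, held 22 clustered narrow peaks among 69 peaks in all. The median over 102 stretches with peaks was 4 members, and 13 stretches had none.

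**Figure D5:**
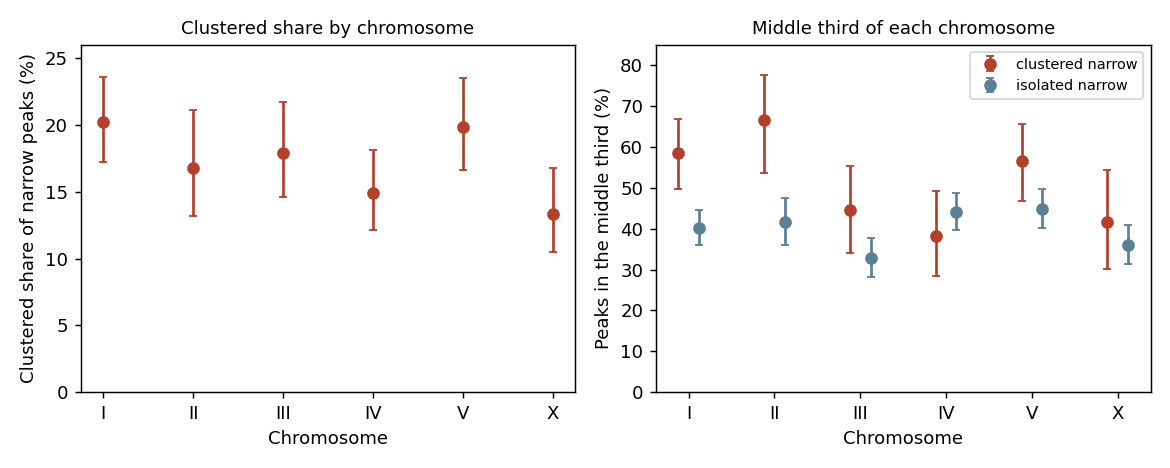
Left, clustered peaks as a percent of all narrow peaks (y axis) on each chromosome. Right, percent of clustered narrow peaks (red) and isolated narrow peaks (blue) that lie in the middle part of each chromosome, 1 of 3 equal parts. Bars are 95% Wilson intervals that treat peaks as independent, which members of a run are not. The clustered share runs from 13.3% on X to 20.2% on I, and in the middle part the intervals of the 2 classes are apart on I and II alone.

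Chromosome I also had the lowest replicate 1 overlap of the members. Replicate 1 overlapped 15 of its 123 clustered narrow peaks (12.2%, Wilson interval 7.53 to 19.1%) and 51 of its 485 isolated ones (10.5%, 8.09 to 13.6%), although its median −log10 q in the combined list was 7.29 for clustered and 6.43 for isolated peaks. On the other chromosomes the overlapped share of clustered peaks ran from 21.0% on III to 29.6% on IV, with 28.1% on II, 27.7% on V and 25% on X. For isolated narrow peaks it was 22.3% on III, 22.2% on IV, 16.3% on II, 18.4% on V and 23.3% on X. The clustered share was thus the lower on III. In the strongest of the 10 groups, replicate 1 overlapped 13 of 21 clustered and 42 of 51 isolated peaks on I, and 46 of 46 clustered and 170 of 173 isolated peaks elsewhere. The 5 strongest members without a replicate 1 peak were all on I. The first of these was at I:7595406-7596093 (−log10 q 23.5), and the next was at I:4436657-4437187 (17.96), whose partner at I:4437801-4438240 (15.3) was also without one. The others were at I:4699088-4699751 (17.95) and I:10564903-10565601 (16.3). With I left out, the difference between clustered and isolated narrow peaks was 5.54 points without regard to strength. At matched strength it was -0.93 points in the same 10 groups and -1.05 points in groups cut again without I. On I alone, 16.0% of the clustered peaks would have been overlapped at the isolated peaks' rates in each group. The share found there was 12.2%, a difference of -3.85 points that rests on 15 overlapped peaks.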

How the data were processed

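Groups and replicate numbers came from the sample titles. The ChIP samples' free-text descriptions say input and so contradict their titles, but source names and attached lists follow the titles. Peaks were called with PeakSeq on WormBase WS180, per the file headers and source column, and the authors deposited a q-value per peak. The sources used here do not state the caller's version, aligner, filters, depth, control or the making of the combined list. Deeper sequencing gives more peaks and smaller q-values at the same binding.

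From the 1-based positions, gaps (next start minus previous end minus 1), runs and overlaps of at least 1 bp were computed. The span of a chromosome was taken as the highest peak end over the 3 lists, and a peak's midpoint gave its place. The members and lists were chosen with earlier results of these data known. No p-value was computed, since peaks are not replicates and nothing says whether replicates came from separate cultures. Named regions are the clusters of the 10 strongest members (in the text or the plot), the 5 largest runs (4 of them from the 7 runs of 4 peaks, taken by their strongest narrow peak), the 3 shortest gaps, the 5 strongest members without a replicate 1 peak, the 3 narrow-only runs with most replicate 1 overlap (12 runs tied, ranked by their strongest peak), and peaks at the limits of the rule. Scripts were tested on simulated data (20 lists of 108 to 122 peaks) and gave the pairwise count in all 20. Python 3.11.15, NumPy 2.4.6, pandas 2.3.3, SciPy 1.17.1 and matplotlib 3.10.9 were used.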

Additional observations from a re-analysis of the deposited data

How the results depend on the processing

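The share overlapped by replicate 1 (clustered minus isolated, 2.74 to 5.54 points), the same at matched strength (-2.89 to -0.43 points) and the share on X (-6.22 to -3.96 points) kept their sign and stayed within their main intervals under every alternative run for them, although the interval of the first included 0 with gaps up to 500 bp, widths under 600 bp, peaks under 200 bp left out, narrow neighbours only and the stronger 50% of the list, that of the second in each, and that of the share on X in the stronger 50% of the list (-9.17 to 1.63) and without replicate 2 (-12.3 to 5.04). The alternatives without chromosome I, at equal width and for the matched-strength, run-size and replicate 2 results were chosen after seeing the data. The number of members was 503, with 196 at a gap limit of 500 bp, 865 at 2000 bp and 172 in the stronger 50% of the list, and from 68 to 505 with a replicate left out. The difference in median −log10 q was 0.076 at equal width, and from 0.241 to 0.932 with a replicate left out, and its interval included 0 at a gap limit of 500 bp and without replicate 2. The middle-third difference was 4.77 points at a gap limit of 500 bp, and from 1.86 to 11.9 points with a replicate left out, and its interval included 0 at 500 bp and without replicate 2. Runs of 2 made up 84.7% at 500 bp, 71.7% at 2000 bp, 90.4% with narrow neighbours only, 82.6% in the stronger 50% of the list, and from 78.2 to 91.5% with a replicate left out. Of replicate 1's own 68 members, 57.4% were overlapped by a clustered narrow replicate 2 peak, which is the value without replicate 2. The causes of these shifts were not tested, except that fewer or more peaks enter by construction at another gap limit or list. All intervals given here treat peaks as independent, which members of a run are not. Values without replicate 1 rest on replicate 2, whose list is nearly that of the combined one. No paired analysis was possible because peak lists exist here for ChIP alone. Unknown depth limits a missing replicate 1 peak to non-detection.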
